A study of Mus musculus with 12 samples.

Results

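Serpins are protease inhibitors that trap their target by offering it a bait loop, which the protease cleaves and by which it is then held and distorted. Genes of 6 serpins were examined in PD-1+CD44+CD8+ T cells: Serpina3g, Serpina3f, Serpinb9, Serpinb6a, Serpinb6b and Serpinb1a. They were chosen by name, with the higher Serpina3g level of the older mice already known, and are 6 of the 18992 gene identifiers in the deposited tables. Because the choice drew on these levels, the values are a description and no test is given.

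Cells were sorted from female NZB/W F1 mice, the offspring of NZB and NZW parents, which develop lupus nephritis as they age. The sort took cells positive for PD-1, CD44 and CD8 from spleen at 12 weeks (12W spleen), before disease, and from spleen and kidney at 28 weeks (28W spleen and 28W kidney), in advanced disease. No treated mice and no mice of a strain without lupus are in these groups. The labels list 12 samples, 4 per group, but each group was deposited as 1 pooled table with no map from cells to samples, and the number of mice is not given. The 4 titles of a group differ only in their endings, L001 to L004. Whether these are separate mice, sorts or sequencing lanes of 1 library is not stated. Each group is therefore 1 library without a replicate. For 28W spleen the labelled age is 12 weeks while the sample titles say 28W, and the groups follow the titles.

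The 3 libraries held 6481 to 7135 cells in 10 to 12 clusters made by the authors, 33 clusters in all, and 29937384 to 34742303 unique molecular identifiers (UMIs, one per captured transcript). Levels are given as UMIs per 1000000 UMIs of the library or cluster (CPM), with exact 95% Poisson limits, and folds with exact conditional 95% intervals. Such limits describe counting error and leave out any variation among mice or sorts. Where 3 values follow each other with no library named, they stand for 12W spleen, then 28W spleen, then 28W kidney. A count of 0 in a whole library allows up to 3 counts, or 0.0864, 0.0937 and 0.10 CPM. All 7 CD8 T cell markers were detected in each library. Between 52 and 66 cell barcodes were shared by any pair of libraries.

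Markers of other cell types were raised in 1 cluster of 12W spleen, 3 of 28W spleen and 5 of 28W kidney, which held 15.4%, 12.9% and 34.6% of the cells. A cluster was counted here if its summed B cell, myeloid, neutrophil, kidney tubule or erythroid markers were at least 5 times the median cluster and at least 100 CPM. The CD8 list was lowest in 28W spleen cluster 10 (971 CPM against a median of 3994 over clusters), where the B cell list stood at 2631 and the myeloid list at 1914 CPM. In kidney it was lowest in cluster 12 (1176 CPM), with myeloid markers at 12417 and neutrophil markers at 18216 CPM, and next in cluster 8 (1883 CPM), with B cell markers at 1970 CPM. These 9 clusters were kept in the library levels, and the folds of the serpin genes are also given without them. In kidney, cluster 11 was counted for erythroid markers alone (1809 CPM), with the CD8 list at 4380 and proliferation markers at 8523 CPM. In 28W spleen, cluster 11 was counted for neutrophil markers alone (101 CPM), with the highest CD8 list of that library (5045 CPM). Clusters 10 of 12W spleen and 6 of 28W spleen, highest there in proliferation markers, were not counted. Organ folds without the 9 clusters thus lack the cluster highest in proliferation markers for kidney only.

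Serpins of the B clade act mainly inside cells, where they guard the cytosol against proteases that leak from granules. Serpinb9 inhibits granzyme B and is known to protect cytotoxic lymphocytes from their own granule contents. Serpinb6a is a mouse counterpart of human SERPINB6, and Serpinb6b has been described as a granzyme A inhibitor. Serpinb1a inhibits neutrophil elastase, cathepsin G and proteinase 3. Serpina3g, also called Spi2A, belongs to a clade of mostly secreted inhibitors but is found in the cytosol, inhibits lysosomal cathepsins and is known to be induced by interferon gamma and NF-kB. Serpina3f is a close relative with a different bait loop.

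On GRCm38, Serpina3f (ENSMUSG00000066363, chr12:104214544-104221129, plus strand) and Serpina3g (ENSMUSG00000041481, chr12:104236245-104241939, plus strand) were adjacent, 15115 bases apart with 0 protein-coding genes between them. The B clade genes lay on chromosome 13: Serpinb1a (ENSMUSG00000044734, chr13:32842092-32851185, minus strand), Serpinb6b (ENSMUSG00000042842, chr13:32965209-32979067, plus strand), Serpinb9 (ENSMUSG00000045827, chr13:33003250-33017957, plus strand) and Serpinb6a (ENSMUSG00000060147, chr13:33917918-34002794, minus strand). Between Serpinb1a and Serpinb6a lay 14 protein-coding genes, of which 13 were serpins. Close copies can share reads. Of the 50-base stretches in Serpina3g transcripts, 15.5% also occurred in another serpin, most often Serpina3h, and of those of Serpina3f 10.6% did, most often in Serpina3g. The share was 0.378% to 2.81% for the other 4 genes. These shares cover whole transcripts, and the part near the 5′ end, which the kit captures, was not examined alone. The levels of Serpina3g and Serpina3f are uncertain to the extent that such reads were split or dropped.

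RefSeq windows before a transcript start (GRCm38.p6) were found for 5 of the 6 genes. Shown are the windows of Serpina3g, Serpina3f, Serpinb6a and Serpinb9 that do not touch an annotated serpin exon. They are shown because cytokine-responsive motifs were looked for in them. Overlap with exons of other genes was not checked. Capitals mark TTCNNNGAA, the GAS motif bound by STAT factors and its own reverse complement, or the interferon regulatory factor (IRF) motif, spelled as TTTC, any 2 bases and TTTC again and searched on both strands. Each runs 5′ to 3′ along the gene's strand and ends at the base before the RefSeq start. The gene coordinates given above are from GENCODE. The Serpina3g window ends short of its GENCODE start, and the Serpinb9 window lies inside its GENCODE span.
Serpina3g chr12:104235897-104236146, plus strand: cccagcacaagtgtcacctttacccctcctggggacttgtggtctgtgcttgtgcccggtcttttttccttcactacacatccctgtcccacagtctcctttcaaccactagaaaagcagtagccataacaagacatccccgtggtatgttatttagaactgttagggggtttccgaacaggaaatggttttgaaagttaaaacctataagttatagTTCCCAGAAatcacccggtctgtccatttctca
Serpina3f chr12:104214294-104214543, plus strand: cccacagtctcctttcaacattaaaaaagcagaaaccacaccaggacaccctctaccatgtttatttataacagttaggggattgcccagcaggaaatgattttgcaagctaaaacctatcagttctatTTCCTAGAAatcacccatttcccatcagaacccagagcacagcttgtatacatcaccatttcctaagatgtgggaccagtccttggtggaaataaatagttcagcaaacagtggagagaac
Serpinb9 chr13:33004291-33004540, plus strand: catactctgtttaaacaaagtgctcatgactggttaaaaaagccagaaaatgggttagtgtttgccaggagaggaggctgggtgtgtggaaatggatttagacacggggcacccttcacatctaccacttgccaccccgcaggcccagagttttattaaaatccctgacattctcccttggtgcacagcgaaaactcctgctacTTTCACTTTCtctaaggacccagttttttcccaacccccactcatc
Serpinb6a chr13:34002795-34003044, minus strand: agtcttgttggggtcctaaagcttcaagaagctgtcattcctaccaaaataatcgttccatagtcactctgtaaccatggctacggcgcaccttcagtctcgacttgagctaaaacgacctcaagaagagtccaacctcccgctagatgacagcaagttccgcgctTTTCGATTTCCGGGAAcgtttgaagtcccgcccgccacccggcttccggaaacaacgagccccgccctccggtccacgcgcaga

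In the windows shown, a GAS match stood 33 to 25 bases before the RefSeq Serpina3g start. Such a match stood 121 to 113 bases before that of Serpina3f and 77 to 69 before that of Serpinb6a. Counted from the GENCODE start, the Serpina3g distance would be larger, so the 2 distances of the paralogs are not on a common footing. An IRF match stood 46 to 37 bases before the RefSeq Serpinb9 start and 84 to 75 before that of Serpinb6a, where it overlaps the GAS match. Serpina3f and Serpinb6a each had another RefSeq start, whose window overlapped an annotated serpin exon and is not shown. The same Serpina3f GAS match stood 210 to 202 bases before its other start. The other Serpinb6a window had 0 GAS and 0 IRF matches. The Serpina3g and Serpina3f windows shown aligned locally over 147 columns with 119 identical (81.0%). A GAS match occurred in the windows of 3 of the 5 genes and of 8.13% of 27025 genes, and an IRF match in 2 of the 5 and in 3.46% of all. The motifs were picked with these windows in view, the reference is C57BL/6J rather than NZB or NZW, and a match is a description of letters, not a binding site.

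Serpina3g was at 11.9 CPM (10.8 to 13.2, 415 UMIs) in 12W spleen, 56.3 (53.8 to 59.0, 1804 UMIs) in 28W spleen and 131 (127 to 135, 3924 UMIs) in 28W kidney. The level was thus 4.72-fold (4.24 to 5.26) higher in 28W than in 12W spleen and 2.33-fold (2.20 to 2.46) higher in 28W kidney than in 28W spleen. Per 1000 cells it gave 60.2, 278 and 550 UMIs. Without the clusters carrying markers of other cells, the folds were 4.79 (4.28 to 5.37) and 2.97 (2.80 to 3.15). Both comparisons share the 28W spleen library. In these library sums, more cells with the transcript and more transcript per cell cannot be told apart.

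Serpina3f followed the same order of libraries with far fewer UMIs. It was at 0.201 CPM (0.0810 to 0.415, 7 UMIs) in 12W spleen, 2.90 (2.34 to 3.56, 93 UMIs) in 28W spleen and 8.55 (7.54 to 9.67, 256 UMIs) in 28W kidney. The fold between the spleens was 14.4 with an interval of 6.72 to 36.8, wide because of the 7 UMIs at 12 weeks. Between the 28W libraries it was 2.94 (2.31 to 3.77). Without the clusters carrying other markers the folds were 15.9 (7.02 to 44.4) and 3.59 (2.79 to 4.65).

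Serpinb9, the granzyme B inhibitor, was at 15.7 CPM (14.4 to 17.1, 545 UMIs) in 12W spleen, 21.4 (19.8 to 23.1, 686 UMIs) in 28W spleen and 44.4 (42.1 to 46.9, 1330 UMIs) in 28W kidney. It was 1.37-fold (1.22 to 1.53) higher in the older spleen and 2.07-fold (1.89 to 2.28) higher in kidney than in the spleen of the same age. The larger step lay between organs, and without the clusters carrying other markers the folds were 1.33 (1.18 to 1.51) with age and 2.42 (2.19 to 2.68) between organs.

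Serpinb6a and Serpinb6b differed little between the 28W libraries. Serpinb6a was at 30.6 CPM (28.8 to 32.5, 1063 UMIs), 43.8 (41.5 to 46.1, 1402 UMIs) and 42.9 (40.6 to 45.3, 1285 UMIs). Its fold was 1.43 (1.32 to 1.55) with age and 0.980 (0.908 to 1.06) between organs. Serpinb6b was at 35.7 CPM (33.7 to 37.7, 1239 UMIs), 41.1 (38.9 to 43.3, 1315 UMIs) and 38.1 (36.0 to 40.4, 1142 UMIs), a fold of 1.15 (1.06 to 1.25) with age and 0.929 (0.857 to 1.01) between organs. Both organ intervals include no difference, and both folds turned to slightly above 1 without the clusters carrying other markers (1.04, 0.958 to 1.14, and 1.03, 0.943 to 1.13). Their folds with age without those clusters were 1.46 (1.35 to 1.59) and 1.15 (1.06 to 1.24). Per cell, both were lower in kidney, with 180 against 216 UMIs per 1000 cells for Serpinb6a and 160 against 203 for Serpinb6b, in a library with 4196 UMIs per cell against 4941 in 28W spleen.

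Serpinb1a, the inhibitor of neutrophil proteases, was at 2.50 CPM (2.01 to 3.09, 87 UMIs) in 12W spleen, 5.62 (4.83 to 6.50, 180 UMIs) in 28W spleen and 15.3 (14.0 to 16.8, 459 UMIs) in 28W kidney. Its folds were 2.24 (1.73 to 2.93) with age and 2.73 (2.29 to 3.26) between organs. The clusters carrying markers of other cells held 25.3%, 46.1% and 50.3% of its UMIs, against 6.49%, 4.22% and 34.7% of all UMIs of those libraries. Without them the level was 2.0, 3.16 and 11.7 CPM, and the folds were 1.58 (1.14 to 2.20) and 3.69 (2.90 to 4.73). Averaging the deposited means over cells, in place of summing UMIs, moved its log2 ratio between organs from 1.30 to 0.40.

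**Figure D1:**
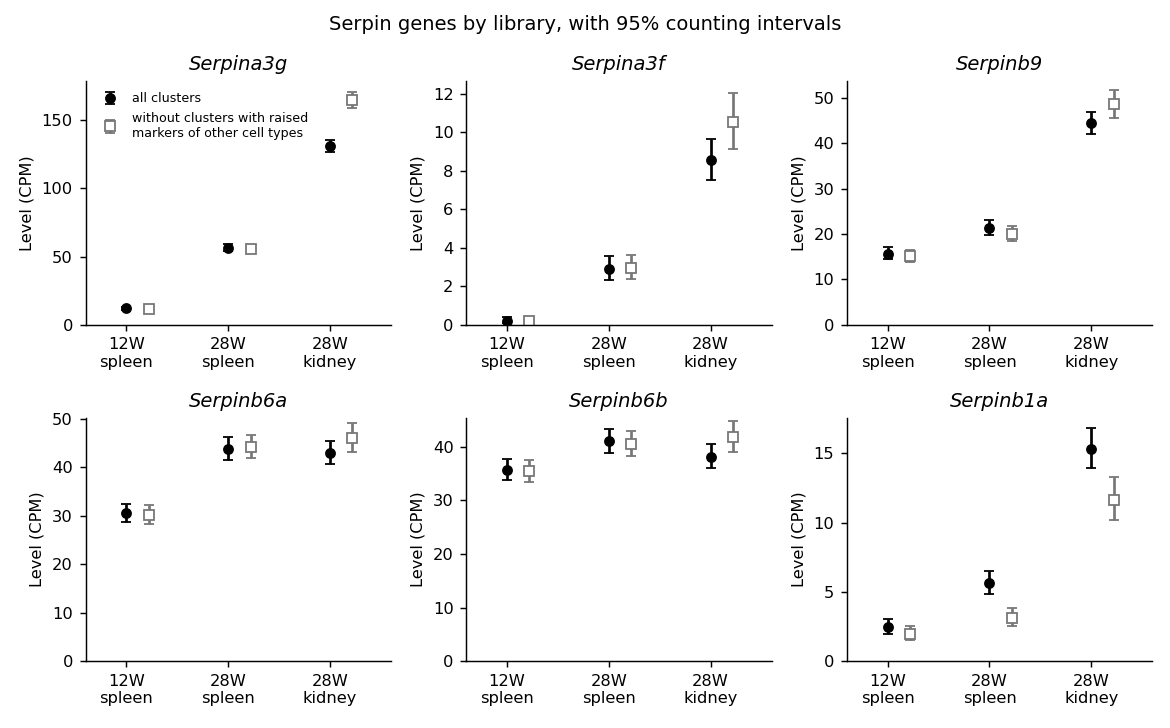
Level of each serpin gene in the 3 libraries, in CPM, over all clusters (filled) and without the clusters carrying markers of other cells (open squares), with bars for exact 95% Poisson limits that cover counting error only. Serpina3g, Serpina3f, Serpinb9 and Serpinb1a were higher in each library in the order 12W spleen, 28W spleen, 28W kidney, while Serpinb6a and Serpinb6b were close in the 28W libraries.

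For a common scale, a log2 ratio was taken after adding 1 CPM to both levels, which understates the change of low genes. On this scale 2 of the 6 genes, Serpina3g (2.15) and Serpina3f (1.7), were at least 2-fold higher in 28W than in 12W spleen, against a background of 1.85% of the 8919 genes that reached 5 CPM in either library. Serpina3f itself was under that minimum in this comparison. The other 5 genes reached it, Serpinb1a only in 28W spleen, where it is higher. All 6 genes were higher by any amount, against 34.3% of all genes, and none was 2-fold lower, against 0.953%. The rule used this contrast for Serpina3g, so nothing is read from the count that includes it.

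Between 28W kidney and 28W spleen, 4 of the 6 genes were at least 2-fold higher in kidney on the same scale, against a background of 6.41% of 9274 genes. These were Serpina3g (1.20), Serpina3f (1.29), Serpinb9 (1.02) and Serpinb1a (1.30), with Serpinb9 just past the limit of 1. The count of 4 depended on the setting. As UMIs per cell, Serpina3g (0.970) and Serpinb9 (0.788) were under the limit. With deposited means averaged over cells, Serpinb9 (0.817) and Serpinb1a (0.401) were under it. Without the clusters carrying other markers all 4 stayed past it, the lowest being Serpinb9 (1.24). All 6 genes reached 5 CPM here, but Serpina3f did so only in kidney, where it is high. By any amount 4 of the 6 were higher, against 61.1% of all genes, and none was 2-fold lower, against 1.43%. The median log2 ratio of the 6 genes was 0.71 with age, against -0.095 over all genes, and 1.11 between organs, against 0.078 over all genes. The 6 genes were chosen with the Serpina3g levels known, and the age median includes Serpina3f, under the 5 CPM minimum there. Nothing is read from these medians.

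**Figure D2:**
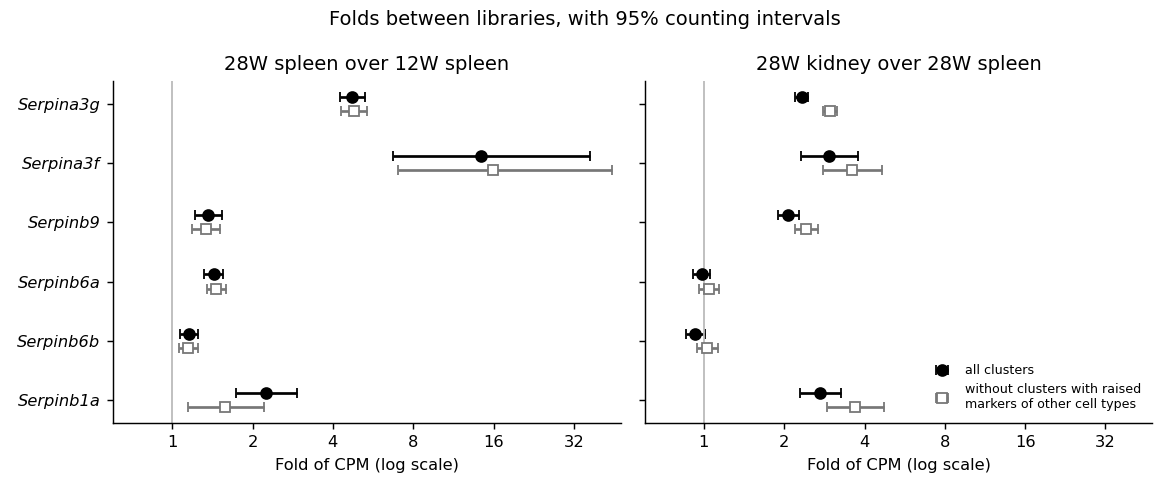
Fold of each serpin gene for 28W spleen over 12W spleen and for 28W kidney over 28W spleen, on a log axis, over all clusters and without the clusters carrying markers of other cells, with exact 95% intervals for counting error. Serpina3f and Serpina3g had the largest folds with age (14.4 and 4.72), and the organ folds of Serpinb6a and Serpinb6b were just under 1 over all clusters and just over 1 without those clusters.

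Within the libraries, Serpina3g was concentrated in 1 cluster at 12 weeks and spread over most clusters at 28 weeks. Cluster numbers are not matched between libraries, and clusters were made by the authors on all genes, so cluster levels are a description. In 12W spleen, cluster 2 stood at 75.1 CPM (66.7 to 84.2) and held 70.1% of the Serpina3g UMIs with 11.2% of all UMIs. The cytotoxic list (Gzmb, Gzmk, Prf1, Nkg7 and Ccl5) also stood highest in that cluster, at 9313 CPM against a median of 770. Cluster 3, with raised markers of other cells, followed at 16.9 CPM (11.9 to 23.1), and the step of 4.45-fold (3.17 to 6.42) between them was the only one of 9 neighbouring pairs whose interval stayed above 1. The median 12W cluster was at 4.14 CPM and the lowest, cluster 7, at 1.20.

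In 28W spleen, Serpina3g ran from 127 CPM (117 to 137) in cluster 2 down to 9.77 (7.18 to 13.0) in cluster 3, with a median of 67.7. Clusters 10, 4, 9, 1, 5 and 11 lay between 110 and 50.6 CPM, and clusters 8, 6 and 7 at 26.1, 16 and 14. None of the 10 neighbouring pairs was apart by its interval. Clusters 6, 7 and 3, the low end, had 1358, 1211 and 1335 CPM of the cytotoxic list, against 14210 in cluster 2. The list did not follow Serpina3g throughout, since cluster 10, second for Serpina3g, had the lowest value (1181 CPM) and cluster 9, with 80.1 CPM of Serpina3g, the highest (20638).

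In 28W kidney, Serpina3g was highest in cluster 6, at 277 CPM (254 to 301), 1.44-fold (1.28 to 1.61) above cluster 3 at 192 (179 to 207). The 7 clusters without raised markers of other cells lay between 128 and 277 CPM. The 8 such clusters of 28W spleen lay between 9.77 and 127, so even the lowest of the kidney was level with the highest of the spleen, at 128 (113 to 144) against 127 (117 to 137). The 5 kidney clusters with raised markers of other cells were the 5 lowest, from 107 CPM in cluster 2 to 49.1 in cluster 12.

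Because cluster 2 carried most of the Serpina3g of 12W spleen, leaving it out moved the log2 ratio with age from 2.15 to 3.51. Leaving out any other single cluster of either spleen moved it by less than that. The direction was the same in each case.

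Serpina3f was detected in the same leading clusters. In 12W spleen 5 of its 7 UMIs were in cluster 2, and 7 of 10 clusters had none. In 28W spleen it was highest in cluster 2, at 5.90 CPM (3.92 to 8.53), and had 0 UMIs in clusters 3, 8 and 11. In kidney it was found in all 12 clusters, from 20.2 CPM (14.3 to 27.6) in cluster 6, then 16.8 in cluster 10 and 14.8 in cluster 3, to 1.47 in cluster 11. No neighbouring pair was apart by its interval in any library.

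Over the 33 clusters, Serpina3g had a Pearson r of 0.872 with Serpina3f in log2(CPM + 1), and of 0.681 after the mean of each library was subtracted. The clusters share libraries, total depth and the split of cells, and the pair shares some sequence.

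**Figure D3:**
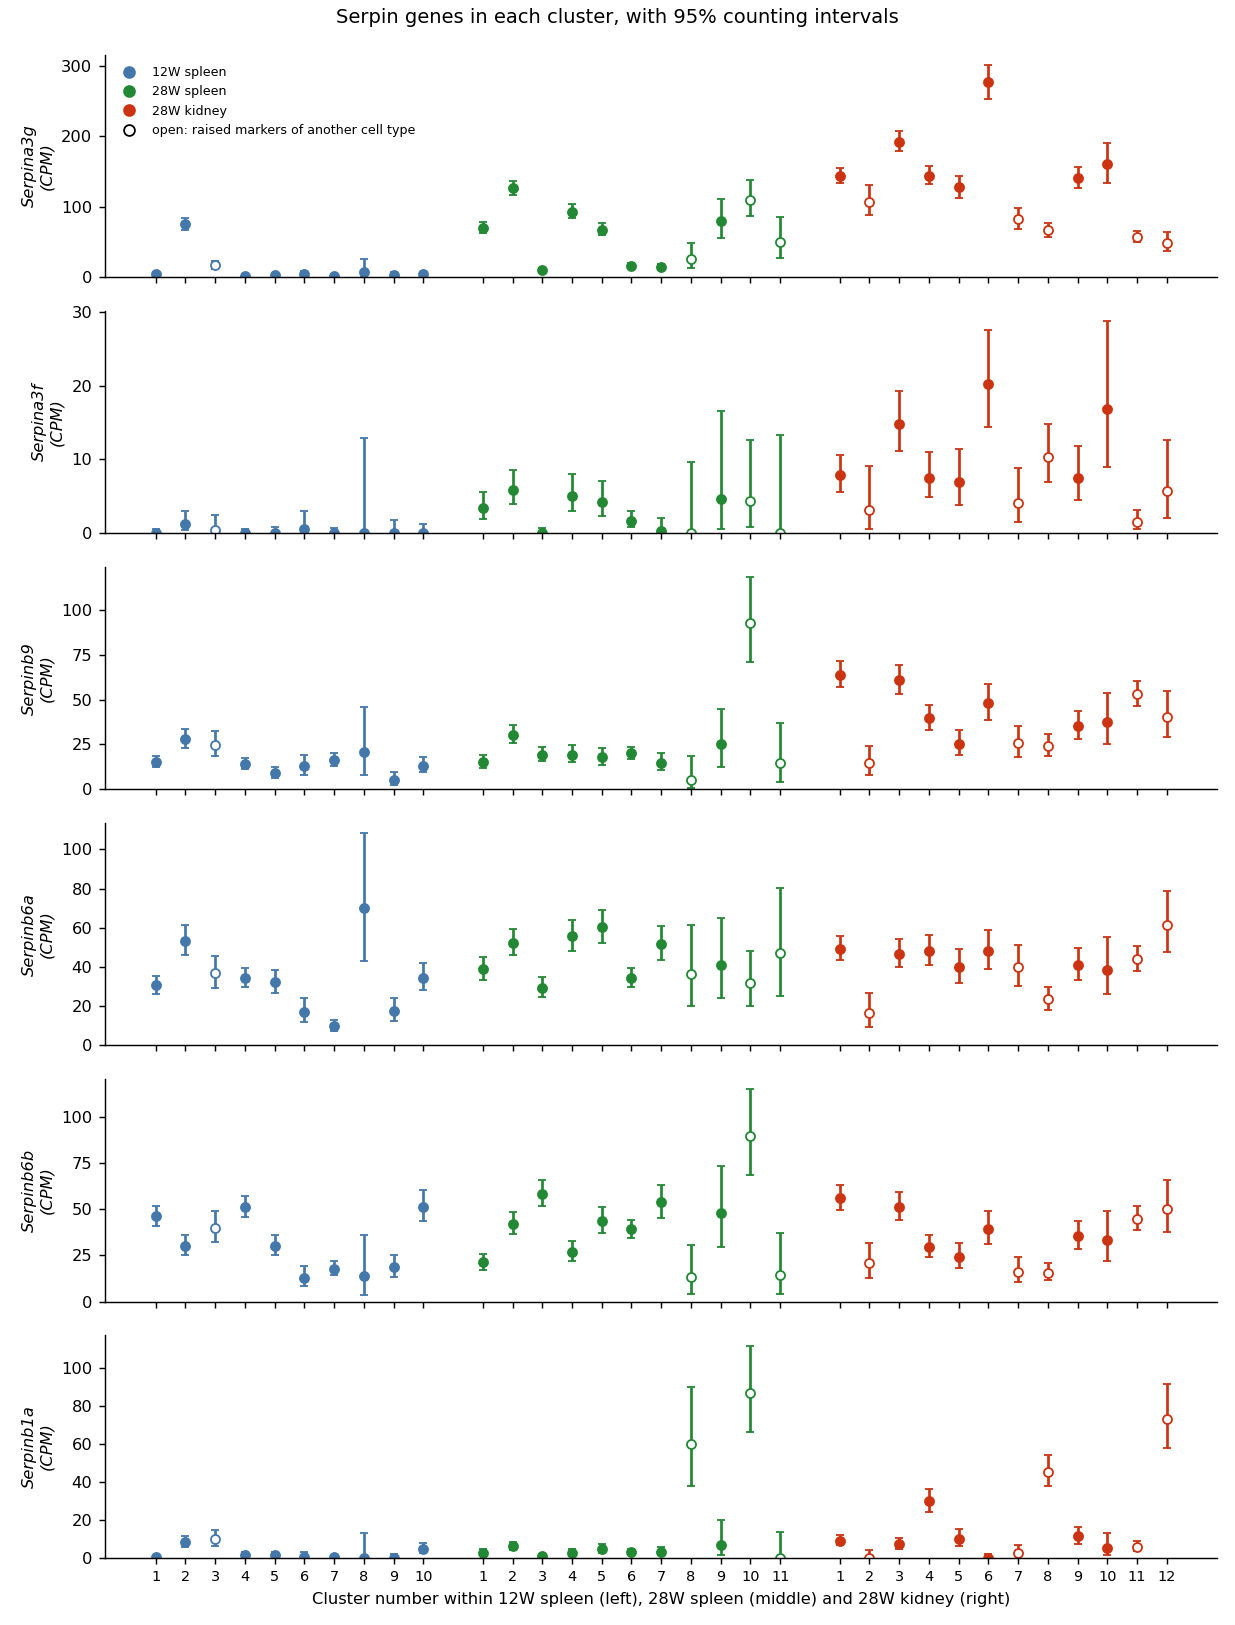
Level of each serpin gene in each of the 33 deposited clusters, by library, in CPM on a linear axis of its own for each gene, with bars for exact 95% Poisson limits and open points for clusters carrying raised markers of other cell types. Serpina3g lay between 1.20 and 75.1 CPM over the 12W clusters and between 49.1 and 277 over the kidney clusters, and the highest Serpinb1a levels in the 28W libraries were in open points.

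Over the clusters of 12W spleen, Serpinb9 ran from 27.9 CPM (22.9 to 33.6) in cluster 2 to 5.36 in cluster 9, with no neighbouring pair apart. In 28W spleen the highest level, 92.5 CPM (71.2 to 118, 64 UMIs), was in cluster 10, where B cell and myeloid markers were raised and Gzmb had 0 UMIs. It was 3.05-fold (2.23 to 4.12) above cluster 2, at 30.3 CPM (25.6 to 35.7), the highest of the clusters without other markers. Whether cells of another type carried the Serpinb9 of cluster 10 was not tested.

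In kidney Serpinb9 was highest in clusters 1, 3, 11 and 6, at 64.0 (57.3 to 71.3), 60.7 (53.0 to 69.1), 53.0 (46.2 to 60.5) and 48.1 CPM. Gzmb, its target protease, was also highest in those clusters, in the order 1, 11, 6 and 3, at 696, 603, 281 and 261 CPM. The overlap was not particular to Gzmb. Gzmk, another granzyme gene, was highest in them too, at 902, 873, 869 and 815 CPM in clusters 6, 1, 11 and 3. So was Nkg7, at 2841, 2722, 2587 and 2247 CPM in clusters 1, 6, 3 and 11. Kidney cluster 5, with the lowest Gzmb (6.94 CPM), had Serpinb9 at 25.5 (19.2 to 33.1). Thus the highest and lowest Gzmb clusters differed far more in Gzmb than in Serpinb9. Over all 33 clusters the r of Serpinb9 with Gzmb was 0.535, and 0.198 within libraries. With Gzmk the r of Serpinb9 was 0.605, and 0.343 within libraries. These values include the clusters carrying other markers. Among them is cluster 10 of the older spleen, with 92.5 CPM of Serpinb9 and 0 UMIs of Gzmb. Neither relation was tested without those clusters. Per cell, cluster 11, the kidney cluster with most proliferation markers (8523 CPM) and most UMIs per cell (11404), had the highest Serpinb9 at 0.604 UMIs.

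Serpina3g had an r of 0.904 with Gzmk, a granzyme of memory and effector CD8 T cells, and of 0.697 within libraries. With Gzmb it was 0.605 and 0.189, and with Ifng 0.813 and 0.511.

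**Figure D4:**
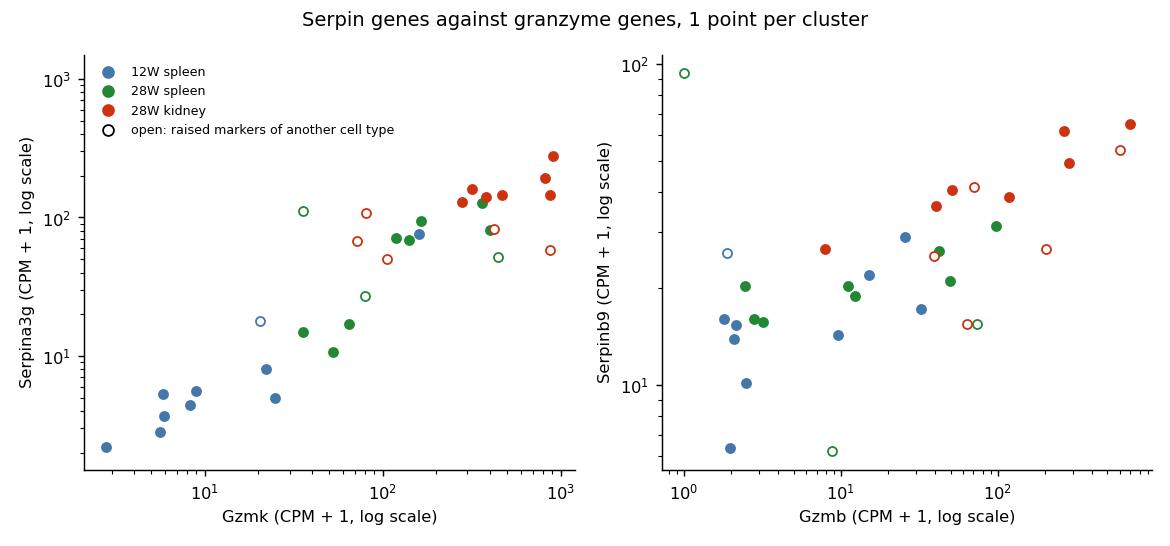
Serpina3g against Gzmk and Serpinb9 against Gzmb, 1 point per deposited cluster, in CPM + 1 on log axes, coloured by library, with open points for clusters carrying raised markers of other cell types. Serpina3g and Gzmk moved together (r 0.904 over 33 clusters and 0.697 within libraries), and 28W spleen cluster 10 stands apart in the second panel with 92.5 CPM of Serpinb9 and 0 UMIs of Gzmb.

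Serpinb6a varied least in 28W spleen, from 60.3 CPM (52.4 to 69.0) in cluster 5 to 29.5 in cluster 3. In 12W spleen it ran from 70.2 (42.9 to 108, 20 UMIs) in cluster 8, a cluster with 928 UMIs per cell and 8.98% mitochondrial UMIs, and 53.4 (46.4 to 61.2) in cluster 2, to 9.83 (7.27 to 13.0) in cluster 7. In kidney it was 38.7 to 49.3 CPM over the 7 clusters without other markers, highest in cluster 12 at 61.6 (47.5 to 78.7) and lowest in cluster 2 at 16.5.

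Serpinb6b had another order of clusters. In 12W spleen it was highest in clusters 10, 4 and 1, at 51.5, 51.2 and 46.1 CPM, and lowest in cluster 6, at 12.9 (8.24 to 19.1). In 28W spleen it was 89.6 CPM (68.7 to 115) in cluster 10, with its B cell markers, and then 58.4 (51.8 to 65.7) in cluster 3 and 53.7 (45.4 to 63.2) in cluster 7, where Serpina3g was low. In kidney it ran from 56.0 CPM (49.7 to 62.9) in cluster 1 to 15.7 in cluster 8. Its r over 33 clusters was 0.153 with Serpina3g and 0.538 with Serpinb9.

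Serpinb1a had the widest spread of the 6 genes over the clusters of each 28W library. In 28W spleen, cluster 10 at 86.7 CPM (66.2 to 112) held 33.3% of its UMIs with 2.16% of all UMIs, and cluster 8, with neutrophil and erythroid markers, stood at 60.0 (38.0 to 90.0). The next cluster, 9, was at 6.87 CPM, an 8.73-fold (2.64 to 45.4) step down. In kidney it was highest in cluster 12, with its myeloid and neutrophil markers, at 73.2 CPM (57.7 to 91.6), and in cluster 8, with B cell markers, at 45.3 (37.8 to 53.9). The part of the other cell types in these levels was not tested.

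Cluster 4 of the kidney was an exception, with Serpinb1a at 29.8 CPM (24.3 to 36.2, 103 UMIs), no raised list of other cells and the CD8 list at 5481 CPM. Il17a, the cytokine interleukin 17A, was looked at there after these values were seen, and cluster 4 held 39 of its 58 kidney UMIs (67.2%, 11.3 CPM). By contrast Serpinb1a had 0 UMIs in kidney cluster 6 (the limit of 3 counts is 1.55 CPM there), the cluster with the most Serpina3g. In 12W spleen its highest levels were 9.76 CPM (6.12 to 14.8) in cluster 3 and 8.26 (5.65 to 11.7) in cluster 2.

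Within a library, the highest cluster was at least 4 times the lowest (CPM + 1) for 4, 5 and 4 of the 6 genes. Over all genes of at least 5 CPM this held for 55.8%, 47.9% and 42.0%. The counts of the 6 include genes under that minimum, Serpina3f and Serpinb1a in 12W spleen and Serpina3f in 28W spleen. The widest spreads were those of Serpinb1a in the 28W libraries, at 87.7 and 74.2 times, and the narrowest that of Serpinb6a in 28W spleen, at 2.01 times.

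Granzyme genes and Prf1, which encodes a pore protein rather than a protease, were listed beside the serpin genes. Of 6 granzyme and perforin genes, 5 were higher and 1 lower in 28W than in 12W spleen, 3 of them by at least 2-fold, with a median log2 ratio of 0.90. Over all genes 34.3% were higher and 1.85% at least 2-fold higher. The lower gene was Gzmc, another granzyme, at 0.187 against 0.345 CPM, a fold of 0.542 whose interval of 0.167 to 1.56 includes no difference. All 6 were higher in 28W kidney than in 28W spleen, 4 of them by at least 2-fold, with a median of 1.15, against 61.1% and 6.41% of all genes. Gzmc, at 0.935 CPM in kidney, was under the 5 CPM minimum of those shares in every library. Gzmb, which triggers death of target cells, was at 8.81, 28.3 and 282 CPM, a fold of 3.22 (2.82 to 3.67) with age and 9.97 (9.31 to 10.7) between organs. Serpinb9 changed by 1.37-fold and 2.07-fold over the same steps. Gzma, the granzyme named for Serpinb6b, was at 51.3, 75.2 and 164 CPM, while Serpinb6b changed little. Gzmk was at 25.1, 138 and 574 CPM, and the pore protein Prf1 at 41.5, 51.1 and 83.3.

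Of 9 cathepsins, mostly lysosomal proteases, 5 were higher and 4 lower with age (median 0.095), against 34.3% of all genes higher. All 9 were higher in kidney than in 28W spleen (median 0.85, 4 by at least 2-fold). Over all genes, 61.1% were higher and 6.41% at least 2-fold higher in kidney. Ctsd and Ctsw were at 317 and 321 CPM in 28W spleen and at 651 and 678 in kidney, and their folds were 2.36 and 2.46 without the clusters carrying other markers. Ctsh, Ctsl and Ctsz turned without those clusters. Ctsz was 1.30-fold (1.22 to 1.39) in kidney over all clusters and 0.847-fold (0.777 to 0.923) without them. Ctsh was 4.93-fold higher in kidney over all clusters but 0.826-fold (0.343 to 1.87) without them, and Ctsl went from 3.73-fold to 0.374-fold (0.254 to 0.539). Ctsl, a known target of Serpina3g, was lower in the older spleen, at 15.4 against 5.78 CPM.

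Of 7 cytokine response genes, 6 were higher and 1 lower with age (median 0.93, 3 by at least 2-fold), and 5 were higher and 2 lower in kidney than in 28W spleen (median 0.34, none by 2-fold). The shares over all genes were 34.3% higher and 1.85% at least 2-fold higher with age, and 61.1% higher in kidney, to which 5 of 7 is close. Ifng, encoding interferon gamma, was at 10.0, 63.5 and 85.0 CPM. Socs1 and Socs3, feedback inhibitors of cytokine receptors, were at 29.1, 68.3 and 91.1 CPM and at 10.6, 58.2 and 54.6. Tbx21, the T-bet gene, was at 19.2, 37.5 and 73.6. Between organs Socs3 was 0.939-fold (0.878 to 1.004), and 0.535-fold (0.488 to 0.586) without the clusters carrying other markers.

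Genes with the most similar level over the 33 clusters were found by Pearson r of log2(CPM + 1) among 5779 or 5780 genes. For Serpina3g these were Casp1, the inflammatory caspase, at 0.946, Ttc39c at 0.945 and S100a6, a calcium-binding protein, at 0.934. They were 0.821, 0.836 and 0.789 after library means were subtracted. For Serpina3f they were Serpina3g, Cish (0.856), a feedback inhibitor of cytokine signals, and Casp1 (0.855). For Serpinb9 they were Mif4gd (0.833), Cd38 (0.827), an activation marker and ectoenzyme, and Fgl2 (0.790). Serpinb6a went with Prr13 (0.818), Tor3a (0.786) and H2-M3 (0.772), a non-classical MHC class I gene. Serpinb6b went with Coro1b (0.797), an actin-binding protein, Gnai2 (0.730), a subunit of inhibitory G proteins, and Bad (0.689). Serpinb1a went with Capg (0.846), an actin-capping protein, Spi1 (0.743), the PU.1 factor of myeloid and B cells, and Lgals3 (0.726), galectin 3. Subtracting library means changed some of these orders, with H2-M3 then at rank 7 for Serpinb6a, Bad at rank 10 for Serpinb6b and Lgals3 at rank 9 for Serpinb1a. For Serpina3f the leading genes became Bst2 (0.702) and Ifi35 (0.690), both interferon-induced. These are descriptions over clusters that share libraries and depth.

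Another 21 serpin genes were listed in the tables, of which 13 stayed under 20 UMIs in every library. Of the other 8, Serpini1 had 278, 264 and 177 UMIs, Serpine2 90, 53 and 77, and Serpina9 20, 28 and 3 UMIs. The others had most UMIs in kidney. Serping1, the inhibitor of complement C1, had 0, 0 and 47 UMIs and Serpinh1, a collagen chaperone, 1, 2 and 117. Kidney cluster 12, with its myeloid and neutrophil markers, held 93.6% and 45.3% of their kidney UMIs, and 51.0% of the 102 of Serpinf1. Cluster 7, with kidney tubule markers at 3886 CPM, held 73.3% of the 30 kidney UMIs of Serpinf2 and 47.6% of the 21 of Serpinb8.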

How the data were processed

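Single-cell libraries of sorted PD-1+CD44+CD8+ T cells were made by the submitters with the 10x Genomics 5′ v2 kit. Their processing notes name GRCm38, Cell Ranger 2.1.1 and R 3.6.1. Cell filters, doublet handling and annotation release are not given in the sources used here. The authors deposited 2 tables per library, the cluster number of each barcode and, per cluster, every gene's mean UMI count after scaling by cell size. The tables also hold the authors' deposited log2 fold change and adjusted p-value of each cluster against other cells, which were not used.

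Each column of mean counts held whole multiples of 1 step (100% of values within 0.001 of a whole number), and dividing by it gave UMIs. Sums over clusters were expressed as CPM. The tables were normalized separately, so levels across libraries rest on this rescaling. Ratios used a pseudocount of 1 CPM, and backgrounds used genes of at least 5 CPM in either library. The methods describe collagenase digestion for kidney but not for spleen. Coordinates came from GENCODE M21 and windows from RefSeq, taking the 250 bases before each start. Python 3.11.15, pandas 2.3.3, scipy 1.17.1 and biopython 1.88 were used.

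With 1 library per group no test was possible. Members and lists were chosen with earlier results of these data known. Named genes were the 6 members, other serpins of at least 20 UMIs in a library, the granzyme, cathepsin and cytokine response lists, and the 3 genes of highest r to each member among genes of at least 20 CPM in a library, without receptor segments. One gene of the cytokine response list is not reported here, and its counts and medians leave that gene out. Il17a was added later. Alternatives changed the scaling, cluster weights, pseudocount, low-count filter, clusters used and the treatment of the paralogs. Clonotypes of the T cell receptor were not used here.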

Additional observations from a re-analysis of the deposited data

How the results depend on the processing

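The median log2 ratio of the 6 serpin genes, a description of a set chosen with Serpina3g known, stayed above 0 under each alternative run. With age it was 0.71, it fell to 0.33 with a pseudocount of 10 CPM, and it lay between 0.49 and 0.95 under the others. Between organs it was 1.11. It was 0.88 as UMIs per cell, 0.61 with the deposited means averaged over cells, 0.61 with a pseudocount of 10 CPM and 1.39 without the clusters carrying markers of other cells, and between 0.96 and 1.22 otherwise. A median gene ratio of -0.099 with age and 0.064 between organs (log2) was removed in one of these scalings. By gene, 10 of the 12 log2 ratios kept their sign in 11 of 11 settings, and the organ ratios of Serpinb6a and Serpinb6b did so in 8 and 9, reaching 0.060 and 0.044 without the clusters with other markers. The organ ratio of Serpinb1a was 1.30 but 0.40 with deposited means averaged over cells, which give shallow clusters more weight, and 1.76 without 28W spleen cluster 10. The ratio of Serpina3f with age ran from 0.34 to 3.32 with pseudocounts of 10 and 0.1 CPM. It had under 20 UMIs in 12W spleen, and leaving it out gave a median with age of 0.50. No paired analysis was possible because each table pools the 4 listed samples of its group. For the same reason no listed sample could be left out.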
